A study of Rattus norvegicus with 10 samples.

Results

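IGHV1-43 is a rat heavy chain variable gene, and the reads described here are the productive reads of all 10 animals whose first annotated IGHV gene was IGHV1-43. They numbered 33441 of 1615896 productive reads. The study immunized Wistar rats with a modified carrier or with a tumor-associated antigen and compared their antibody repertoires, to see which sequences follow the immunogen. The 5 DNP animals received keyhole limpet hemocyanin modified with dinitrophenyl (DNP), a small hapten, and the 5 HuD animals received recombinant human HuD, a neuronal RNA-binding protein that is an onconeural antigen. All 10 rats were given the immunogen in Freund's complete adjuvant and 3 boosts in the incomplete form, so that no unimmunized animal is among them. Spleen cells of each rat gave 1 library of heavy chain variable domains, and the libraries were read together on the MiSeq. Each value below is thus 1 value per animal, and the animals are the replicates. In a whole spleen, more B cells that use a gene and more of its RNA per cell cannot be told apart.

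An antibody heavy chain is assembled in the B cell from a variable (IGHV), a diversity (IGHD) and a joining (IGHJ) gene. The IGHV gene encodes frameworks FR1 to FR3 and the complementarity-determining regions CDR1 and CDR2, while CDR3 forms where the 3 genes are joined, with bases added or lost at the joints, and is the most variable part of the domain. B cells that respond to an antigen multiply and mutate their variable domains, and those that bind better are selected. Descendants of a B cell therefore share an IGHV gene, an IGHJ gene and a similar CDR3, and differ at scattered residues. In mice, responses to small haptens are known to draw on few IGHV genes. The gene is described because peptides from antibodies enriched for DNP binding match its reads.

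The sequence of the peptide over CDR1, without its start in FR1, is shown first, as results on it follow. Both forms run over CDR1 and the start of FR2, IMGT positions 27 to 43, and the capital letters are amino acids in the usual 1-letter code. The first is the consensus, made of the most frequent residue at each position with the animals weighed equally, and the second carries glycine in place of serine at position 40, the residue before the conserved tryptophan of FR2.
Consensus form: GYTFTSYYISWIK
Glycine form: GYTFTSYYIGWIK
The consensus of CDR2, positions 56 to 65, was as follows.
CDR2: INTGSGGT
No germline sequence was used here, so that the consensus stands in for it, and it was identical when taken from the HuD animals alone.

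The libraries held 60647 to 259834 productive reads per DNP animal and 156272 to 224573 per HuD animal. A read is a sequence collapsed by its molecular tag, and 76.7% to 99.2% of the IGHV1-43 reads of an animal rested on 1 sequenced copy, for which no consensus over copies exists. The deposited annotation named IGHV1-43 alone for 33305 of the 33441 reads, and named IGHV1-57 beside it for 134 reads and IGHV1-47 for 2 reads. Unproductive sequences made up 2.33% to 3.48% of the IGHV1-43 sequences in the DNP animals and 2.00% to 4.42% in the HuD animals.

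IGHV1-43 took a larger share of the repertoire in most DNP animals. It held 5.69%, 0.390%, 4.23%, 5.98% and 1.95% of the productive reads of DNP1 to DNP5, against 0.237%, 0.286%, 0.365%, 0.424% and 1.31% of those of HuD1 to HuD5. The DNP animals except DNP2 lay above all HuD animals, and DNP2 lay between HuD3 and HuD4. In the order of the shares, the 95% Wilson intervals of neighbours overlapped only between DNP2 (0.357% to 0.426%) and both HuD3 (0.337% to 0.395%) and HuD4 (0.395% to 0.455%). These intervals cover counting error only. By rank, IGHV1-43 was gene number 6 in DNP3 and DNP4, 7 in DNP1, 14 in DNP5 and 31 in DNP2, and it stood at ranks from 20 in HuD5 to 43 in HuD1.

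**Figure D1:**
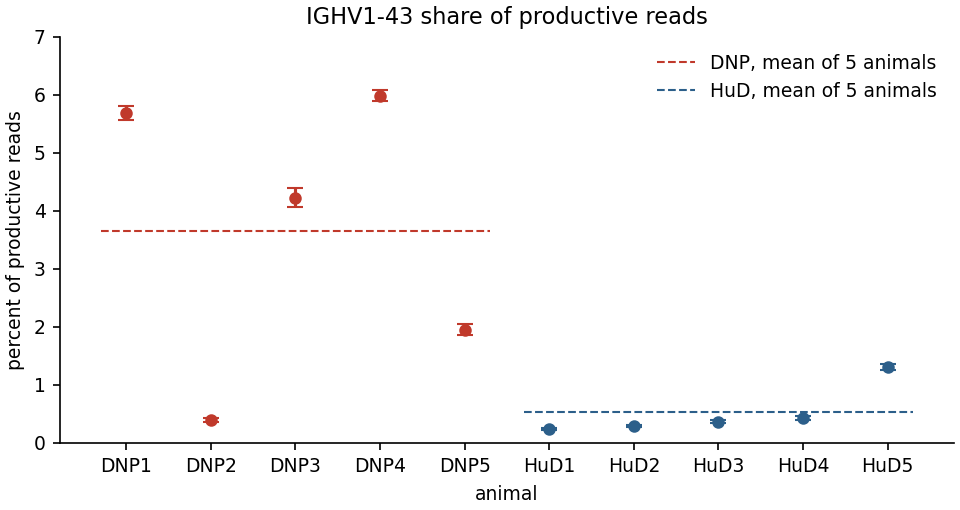
Share of productive reads annotated as IGHV1-43 (percent, vertical axis) in each animal (horizontal axis), with 95% Wilson intervals as bars and the mean of the 5 animals of each antigen as a dashed line. The DNP animals other than DNP2 sit between 1.95% and 5.98%, above all 5 HuD animals.

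The means were 3.65% ± 2.42 in the DNP animals and 0.525% ± 0.445 in the HuD animals (SD, n = 5 each). In the edgeR quasi-likelihood test over 81 IGHV genes, the log2 ratio of DNP over HuD was 2.93 (SE 0.81), with an adjusted p of 0.0992, so that IGHV1-43 did not pass the threshold of 0.05. The test called 2 of the 81 genes, which is 2.47%, both higher in the DNP animals. Whether the threshold was passed depended on DNP2 and on the choice of test. Without DNP2 the log2 ratio was 3.38 with an edgeR adjusted p of 0.000694, without DNP5 it was 3.32 with 0.0499, DESeq2 gave 2.84 with 0.0065, and limma on log2(RPM + 10) gave 2.59 with 0.0221. Where each distinct CDR3 with its IGHJ gene was counted once, the log2 ratio was 1.67 (edgeR adjusted p = 0.130), and no gene was called.

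The other measured IGHV1 genes did not pass the edgeR test in either direction. In all, 7 genes of the IGHV1 subgroup were tested, and 0 were called by edgeR. The 2 with an unadjusted edgeR p below 0.05 were IGHV1-43 and, lower in the DNP animals, IGHV1-52. All 105 reads of IGHV1-52 were in HuD3. DESeq2 called 14 of the 81 genes, IGHV1-43 among them. The median log2 ratio of the subgroup was −0.51, beside −0.13 over all 81 genes. Its summed share was 3.78% ± 2.38 in the DNP animals and 0.765% ± 0.398 in the HuD animals (SD, n = 5 each). IGHV1-43 made up most of it in each DNP animal, and the gene with the next largest share in DNP2 was IGHV1-57, with 0.119% beside 0.390% for IGHV1-43. In each HuD animal, too, IGHV1-43 had the largest share of the tested IGHV1 genes. The genes whose shares ranked the animals most like IGHV1-43 were IGHV2S18 (Spearman 0.733 and Pearson 0.728 over 10 animals), IGHV2-8 (0.721 and 0.720) and IGHV5S11 (0.697 and 0.832). All shares of an animal come from the same library and add up to its total, and these correlations are given as a description.

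The IGHJ gene joined to IGHV1-43 differed from that of the other rearrangements of the same rat. IGHJ2 is the joining gene of most rat rearrangements here, and it was joined to 31.2% of the IGHV1-43 reads and to 55.5% of all other productive reads, as means over 10 animals. The mean difference of −24.2 percentage points (SD 17.5, n = 10) was negative in 8 of 10 animals and passed the exact sign-flip permutation test (p = 0.00781, adjusted p = 0.0312 over 4 IGHJ genes). The exceptions were HuD3, with 52.4% against 50.7%, and HuD4, with 57.4% against 57.0%. With 1 animal left out, the difference ranged from −27.1 to −21.8, and the exact permutation test passed only without HuD3 or without HuD4 (adjusted p = 0.0312 each). Leaving out DNP2 gave an adjusted exact permutation p of 0.0547, and leaving out DNP1, DNP3, DNP4, DNP5, HuD1, HuD2 or HuD5 gave 0.0625. The mean share of IGHJ3 was 44.1% of the IGHV1-43 reads and 23.1% of the other reads, a difference of 21.0 points that did not pass (adjusted exact permutation p = 0.0898). For IGHJ1 and IGHJ4 the adjusted exact permutation p was 0.926 and 0.688.

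The difference in IGHJ2 was −36.8 points in the DNP animals and −11.6 points in the HuD animals, and the gap between them was tested only through the shares that follow. IGHJ2 was joined to 14.7%, 30.6%, 30.7%, 12.0% and 6.82% of the IGHV1-43 reads of DNP1 to DNP5, against 38.6%, 47.4%, 52.4%, 57.4% and 21.8% in HuD1 to HuD5. Only HuD5 lay within the DNP range. The means of 19.0% ± 11.04 in the DNP animals and 43.5% ± 14.0 in the HuD animals (SD, n = 5 each) differed by −24.6 points, with an exact permutation p of 0.0317 but an adjusted p of 0.127 over 4 IGHJ genes. Among the other reads the same gene took 55.8% ± 5.11 in the DNP and 55.1% ± 2.90 in the HuD animals (SD, n = 5 each). The adjusted p dropped below 0.05 when DNP2 (0.0423) or HuD5 (0.0317) was left out and when each distinct CDR3 was counted once (exact permutation test, adjusted p = 0.0317, difference −21.4 points).

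IGHJ3 was the most frequent joining gene of IGHV1-43 reads in 4 of 5 DNP animals, and in HuD1 and HuD5. It was joined to 66.4%, 12.2%, 65.4%, 58.6% and 84.5% of the IGHV1-43 reads of DNP1 to DNP5, against 44.6%, 21.2%, 25.9%, 15.2% and 47.1% in HuD1 to HuD5. DNP2 was again the exception, and it carried IGHJ4 in 38.5% of its IGHV1-43 reads. The IGHJ3 means of 57.4% ± 27.04 in the DNP animals and 30.8% ± 14.3 in the HuD animals (SD, n = 5 each) gave an adjusted p of 0.159 in the exact permutation test, and 0.0317 without DNP2. IGHJ1 stood at 13.1% ± 11.1 in the DNP and 5.21% ± 1.61 in the HuD animals, and IGHJ4 at 10.6% ± 15.8 in the DNP and 20.5% ± 7.22 in the HuD animals (SD, n = 5 each). Their differences of 7.86 and −9.90 points had adjusted p-values of 0.222 and 0.230 in the exact permutation test. Without DNP2 the IGHJ4 difference was −16.9 points, with an adjusted exact permutation p of 0.0317, and without DNP4 the IGHJ1 difference was 4.502 points (adjusted exact permutation p = 0.373).

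**Figure D2:**
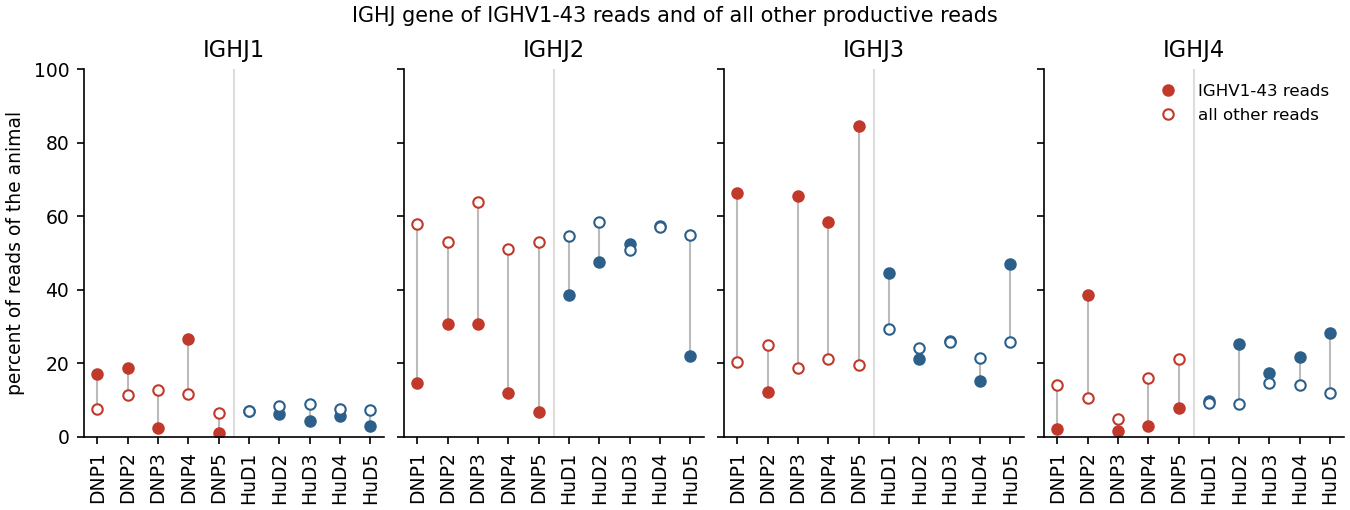
Percent of reads (vertical axis) joined to each of the 4 IGHJ genes in each animal (horizontal axis, DNP animals left of the line and HuD animals right of it). Filled points are IGHV1-43 reads and open points are all other productive reads of the same animal. IGHJ2 was lower in IGHV1-43 reads in all 5 DNP animals, and IGHJ3 was higher in 4 of them.

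The lengths of CDR3 did not separate the antigens, although single lengths stood out. The CDR3 of IGHV1-43 reads held 4 to 36 residues, with animal means of 11.7 ± 0.667 in the DNP and 11.5 ± 0.476 in the HuD animals (SD, n = 5 each). The difference of 0.151 residues did not pass (exact permutation test, p = 0.667), and IGHV1-43 reads lay 0.223 residues below the other reads of the same animal (exact sign-flip permutation test, p = 0.213, lower in 7 of 10 animals). Where each distinct CDR3 with its IGHJ gene was counted once, the CDR3s were longer by 0.625 residues in the DNP animals (exact permutation test, p = 0.0317). Reads with a CDR3 of 11 residues made up 61.2%, 8.49%, 51.8%, 35.6% and 74.4% in DNP1 to DNP5, against 13.8%, 10.6%, 15.0%, 15.9% and 38.7% in HuD1 to HuD5. DNP1, DNP3 and DNP5 lay above all HuD animals, and DNP4 and DNP2 did not. Of the other productive reads, 5.82% to 16.2% in the DNP animals and 6.74% to 15.1% in the HuD animals had this length.

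A clone is counted here as a distinct CDR3 with its IGHJ gene in an animal. There were 606, 130, 266, 1460 and 214 clones in DNP1 to DNP5 and 116, 214, 204, 250 and 421 in HuD1 to HuD5, and 54.9% to 66.4% of the clones of an animal had 1 read. The 10 most abundant clones held 57.1%, 60.7%, 73.1%, 44.9% and 70.4% of the IGHV1-43 reads of DNP1 to DNP5, against 56.5%, 32.7%, 31.8%, 40.5% and 63.5% in HuD1 to HuD5. The groups overlapped, and their means of 61.2% ± 11.3 in the DNP and 45.0% ± 14.3 in the HuD animals (SD, n = 5 each) did not differ past the threshold (exact permutation test, difference 16.2 points, p = 0.0873). With CDR3s that differ by 1 residue joined to a clone, the difference was 25.97 points (exact permutation test, p = 0.0159). It was 20.9 points without HuD5 (exact permutation p = 0.0397) and 23.4 points over sequenced copies (exact permutation p = 0.0317).

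Depth of the gene differed greatly between animals, so the reads were also thinned to the 370 of HuD1, with the mean of 10 draws. Thinned, 105, 110, 78.4, 133 and 85.1 clones were left in DNP1 to DNP5, against 116, 153, 152, 153 and 107 in HuD1 to HuD5. The means were 102 ± 21.7 in the DNP and 136 ± 22.7 in the HuD animals (SD, n = 5 each), an exact permutation p of 0.0476. The groups overlapped in DNP2, DNP4, HuD1 and HuD5.

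The most abundant IGHV1-43 clone of each animal is printed below by its CDR3, as these clones held from 5.38% to 49.1% of the IGHV1-43 reads of an animal. They show that the CDR3s of DNP1 and DNP3 differ at a single residue, while those of the HuD animals all differ in length.
DNP1: ARGGDGIWFAY
DNP2: AGTVPHYYVMEV
DNP3: ARGGSGIWFAY
DNP4: ARRRLPYWYFDF
DNP5: GSYYYRDWFAN
HuD1: ARDIPSWFAY
HuD2: ARDFGYNLYVMDA
HuD3: VREGMDY
HuD4: ARRTGSSDY
HuD5: ARELWIGSFGY
These clones held 2567, 76, 463, 2262 and 879 reads in DNP1 to DNP5, which is 32.4%, 15.7%, 18.1%, 14.5% and 49.1% of their IGHV1-43 reads. In HuD1 to HuD5 they held 111, 46, 33, 125 and 793 reads, where 111 of 370 reads is the share of HuD1 and 7.15%, 5.38%, 16.0% and 29.2% are those of the others. The difference of 8.42 points in this share did not pass (exact permutation test, p = 0.381). Among all CDR3s of the animal, the CDR3 of the leading clone ranked 4, 249, 17, 4 and 7 by abundance in DNP1 to DNP5, against 251, 953, 849, 226 and 33 in HuD1 to HuD5. DNP2 thus lay within the HuD range.

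A clone held many different V regions. The leading clone of DNP1 was read with 1340 distinct V-region amino acid sequences over 2567 reads, that of DNP4 with 1160 over 2262, that of HuD5 with 364 over 793 and that of HuD1 with 18 over 111. The reads of the DNP1 clone rested on 3.85 sequenced copies each, more than the 2.00 of all IGHV1-43 reads of that animal. In the other animals IGHV1-43 reads rested on 1.008 to 1.453 copies, so that sequence errors in single copies add an unknown number of V regions, and their part was not tested.

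CDR3s similar to the leading clones of DNP1 and DNP3 were found in each DNP animal, though by 1 read in DNP2, and not among the HuD reads. CDR3s of equal length and IGHJ gene that differ by 1 residue were joined over all animals, in chains whose ends can differ at more residues. This gave a largest family of 245 clones and 8643 reads, all of 11 residues with IGHJ3. It held 3810, 1, 1197, 3610 and 25 reads in DNP1 to DNP5, which is 48.1%, 0.207%, 46.7%, 23.2% and 1.40% of their IGHV1-43 reads, and 0 reads in each HuD animal. The family was singled out after its values were seen, so it has no test. The HuD animals had 370 to 2719 IGHV1-43 reads each, and 0 reads allow a share of up to 0.811% in HuD1 and up to 0.110% in HuD5, for counting error only. The most frequent members are shown by animal, to compare their middle residues.
DNP1: ARGGDGIWFAY
DNP3: ARGGSGIWFAY
DNP4: ARGSDGVWFAY
DNP5: ARGGYGVWFAY
Glycine at the third and sixth residue and tryptophan at the eighth were present in over 99% of the family's reads in DNP1, DNP3 and DNP4. IGHJ3 CDR3s outside the family also ended in WFAY, such as ARDIPSWFAY of HuD1, so the tryptophan was not particular to the family. The fifth residue was aspartic acid in 89.7% of the reads of DNP1, serine in 91.6% in DNP3, aspartic acid in 65.8% in DNP4 and tyrosine in 92% in DNP5. At the seventh residue isoleucine led in DNP1 (86.4%) and DNP3 (59.1%), and valine led in DNP4 (77.5%) and DNP5 (76%). The annotated IGHD gene of the leading member was IGHD1-1 in DNP1 (99.96% of reads), IGHD5-1 in DNP3 (88.1%) and IGHD1-7 in DNP4 (99.9%), so that different IGHD genes were called for CDR3s of the family.

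Along the IGHV-encoded part, IGHV1-43 reads of the DNP animals lay further from the consensus. Over the 96 positions of FR1 to FR3, a read differed from the consensus at 7.36, 4.78, 6.25, 4.91 and 6.28 residues on average in DNP1 to DNP5, against 4.77, 3.19, 4.83, 3.14 and 4.68 in HuD1 to HuD5. DNP2 and HuD3 were the animals in which the groups met. The means were 5.92 ± 1.07 in the DNP and 4.12 ± 0.875 in the HuD animals (SD, n = 5 each), a difference of 1.80 residues that passed the exact permutation test (p = 0.0159). Leaving out HuD2 or HuD4 gave an exact permutation p of 0.0556 each, and counting sequenced copies gave 1.38 residues and 0.0714. Reads that matched the consensus at every position made up 0.416% to 5.38% in the DNP animals and 4.52% to 22.2% in the HuD animals.

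Position 40 alone made up a good part of this distance. Without it the means were 5.26 ± 0.912 in the DNP and 3.95 ± 0.868 in the HuD animals (SD, n = 5 each), and the difference of 1.31 residues no longer passed (exact permutation test, p = 0.0714). By region, the share of residues off the consensus was 9.30% ± 2.06 in the DNP and 4.65% ± 1.25 in the HuD animals in FR2, which holds position 40. It was 2.68% ± 0.426 against 1.67% ± 0.508 in FR1, 10.8% ± 7.16 against 7.11% ± 2.05 in CDR1, 16.1% ± 5.596 against 11.1% ± 4.43 in CDR2 and 3.99% ± 0.618 against 3.84% ± 1.04 in FR3 (DNP against HuD, SD, n = 5 each). In both groups CDR2 was thus the region with the largest share and FR1 that with the smallest. At least 10% of the reads were off the consensus at 17 of the 96 positions in the DNP mean and at 11 in the HuD mean, with 9 positions in common.

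**Figure D3:**
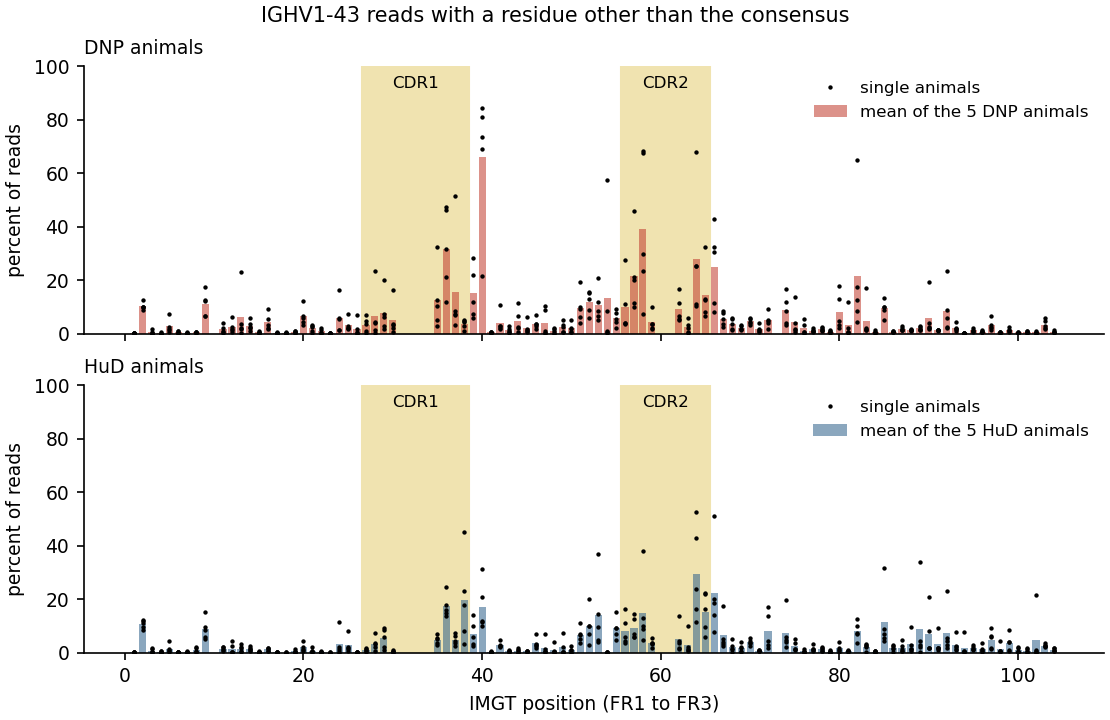
Percent of IGHV1-43 reads whose residue differed from the consensus (vertical axis) at each IMGT position of FR1 to FR3 (horizontal axis), in the DNP animals (upper panel) and the HuD animals (lower panel). Bars are means of 5 animals, points are single animals, and shading marks CDR1 and CDR2. Position 40 stands out in the DNP animals, and positions 64, 66 and 36 are variable in both.

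Glycine at position 40 was the residue that set the DNP animals apart. In place of the consensus serine (S40G, with the consensus residue first, then the IMGT position, then the residue read), it was present in 70.0%, 15.3%, 79.3%, 55.7% and 58.7% of the reads of DNP1 to DNP5. The HuD animals had it in 0.824%, 2.80%, 0.164%, 0.386% and 2.17% of the reads of HuD1 to HuD5. All 5 DNP animals lay above all 5 HuD animals, with DNP2 the nearest to them. In DNP2 a large part of the glycine reads came from similar IGHJ1 clones. These were ARAGLTLPYWYLDF, with the glycine in 83.3% of 24 reads, and ARAGITLPYWYFDF, with it in 86.4% of 22 reads. The means were 55.8% ± 24.5 in the DNP and 1.27% ± 1.16 in the HuD animals (SD, n = 5 each). On the log2(percent + 1) scale the difference was 4.62 (SE 0.74), and S40G was the only one of 204 tested residue variants to pass in limma (adjusted p = 0.0124), so 0.490% of them were called. The DNP peptide over CDR1, for which the gene is described, carries this glycine, so the test of S40G is not independent of that choice. Without HuD1, HuD3 or HuD4 the limma adjusted p of S40G was 0.0839, 0.184 or 0.137 while the difference stayed at 4.41 or more, and the number of calls was 0. Without DNP2 the difference was 5.02, and 3 residues were called, glycine at position 40, methionine at position 58 (4.09, limma adjusted p = 0.00244) and, lower in the DNP animals, serine at position 40 (−1.84, limma adjusted p = 0.0137). Methionine 58 and serine 40 were singled out after their values were seen. The exact permutation test of the percentages gave S40G p = 0.00794, the smallest it can give, which became 0.324 after adjustment over the 204 variants.

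In DNP1, DNP3 and DNP4, the glycine was spread over many clones. In DNP5 the glycine lay largely in similar clones, with 89.1% of the 879 reads of GSYYYRDWFAN and 94.3% of the 122 reads of GSYHYRDWFAN. It was the most frequent residue at position 40 in 346 of 606 clones of DNP1, 15 of 130 of DNP2, 143 of 266 of DNP3, 703 of 1460 of DNP4 and 51 of 214 of DNP5, against 1 of 116, 5 of 214, 1 of 204, 2 of 250 and 10 of 421 clones of HuD1 to HuD5. With each clone counted once, the limma difference was 3.94 on the log2(percent + 1) scale (adjusted p = 0.00304). These clones are not all independent. Joining CDR3s that differ by 1 residue left 279, 94, 132, 874 and 127 clones in DNP1 to DNP5. The largest family held 92, 61 and 106 CDR3s in DNP1, DNP3 and DNP4. The glycine was not counted over joined clones. Among clones with at least 10 reads, the glycine led in 48 of 80 in DNP1, 2 of 7 in DNP2, 18 of 24 in DNP3, 76 of 140 in DNP4 and 5 of 21 in DNP5. In 62, 2, 7, 127 and 8 of these clones of DNP1 to DNP5 between 10% and 90% of the reads carried the glycine, so a clone as counted here often held both residues. In DNP4, clones unlike in CDR3 and IGHJ gene had similar shares, with 78.6% in ARGSDGVWFAY, 75.5% in ARWNNNYWSFDF and 79.7% in ARWGGPGYFDY. ARGGTSFAY had 27.5%. How clones came to hold both residues was not tested. The glycine stood in 85.7% of the reads of the leading clone of DNP1, 91.4% in DNP3, 19.5% in DNP4 and 89.1% in DNP5, but in 1.32% in DNP2. In the HuD animals, the leading clones had it in 0% to 4.35% of their reads.

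**Figure D4:**
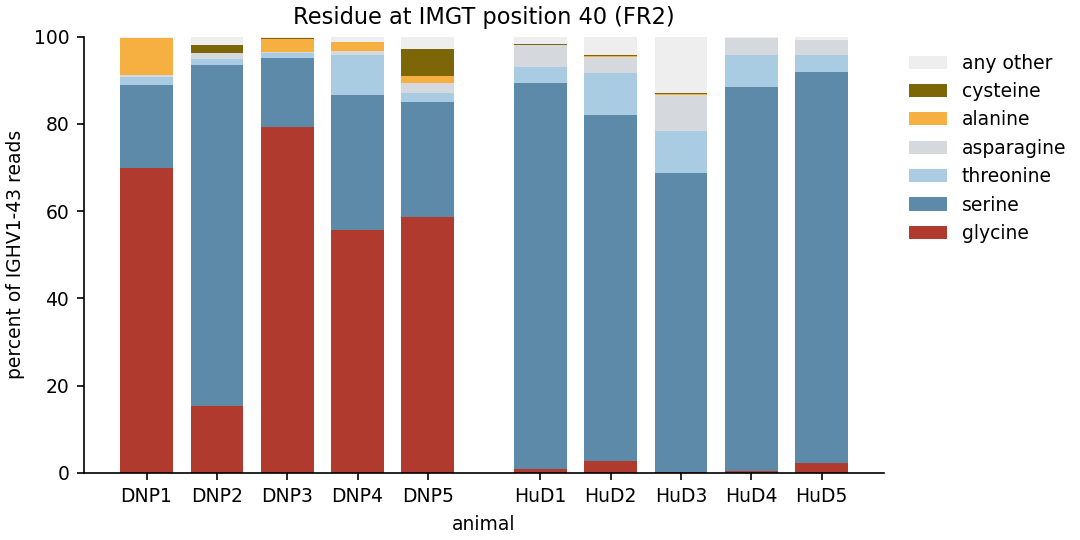
Residue at IMGT position 40 as percent of the IGHV1-43 reads with a residue there (vertical axis, stacked) in each animal (horizontal axis). Glycine made up 15.3% to 79.3% in the 5 DNP animals and 0.164% to 2.80% in the 5 HuD animals, where serine made up 68.6% or more.

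Glycine at position 40 was read with several IGHJ genes in DNP1, DNP3, DNP4 and DNP5, and mainly with IGHJ1 in DNP2. Among IGHJ3 reads it was present in 83.7%, 5.08%, 77.7%, 68.4% and 65.7% in DNP1 to DNP5, and among IGHJ2 reads in 59.5%, 4.05%, 89.2%, 53.5% and 27.3%. The HuD animals had at most 1.47% among IGHJ3 reads and at most 1.31% among IGHJ2 reads. IGHJ1 reads differed from this, with 61.1% of 90 reads in DNP2 and 53.8% of 80 reads in HuD5. In DNP1, DNP3, DNP4 and DNP5 the IGHJ1 values were 29.3%, 33.9%, 31.3% and 5.88%. Among IGHJ4 reads the glycine was present in 37.4%, 5.38%, 15.8%, 31.9% and 14.8% in DNP1 to DNP5, and in at most 2.45% in a HuD animal. Within the largest family 85.7% of the reads of DNP1, 92.8% of DNP3 and 77.8% of DNP4 carried the glycine, and outside it 54.98% of DNP1, 65.98% of DNP3 and 48.98% of DNP4 did. Reads with the glycine differed from the consensus at more of the other positions than reads with serine in all 10 animals, for example at 6.49 against 5.79 in DNP1 and at 5.69 against 3.92 in DNP3, but in HuD1, HuD3 and HuD4 few reads stand behind the glycine value. This order was not tested.

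Other residues at position 40 and elsewhere differed less. Asparagine at position 40 (S40N) was lower in all 5 DNP animals, with 1.09% ± 0.814 in the DNP and 4.81% ± 1.90 in the HuD animals (SD, n = 5 each), and did not pass in limma (adjusted p = 0.113). The groups did not overlap for 5 of the 204 variants (2.45%), which were S40G and T58R higher and S40N, I56F and G64T lower in the DNP animals, and of these S40G alone passed. An unadjusted limma p below 0.05 was reached by 20 variants and an unadjusted exact permutation p below 0.05 by 26. Of the 128 variants off the consensus, 77 had a fitted difference above 0, with a median of 0.25 on the log2(percent + 1) scale.

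Within CDR2, methionine at position 58 (T58M) had the next largest difference among residues off the consensus. It was present in 10.5%, 0.207%, 32.4%, 22.6% and 58.2% of the reads of DNP1 to DNP5, against 1.37%, 0%, 0.327%, 0.257% and 1.62% in HuD1 to HuD5. DNP2 lay within the HuD range. The means of 24.8% ± 22.3 in the DNP and 0.716% ± 0.729 in the HuD animals (SD, n = 5 each) gave a limma difference of 3.19 (SE 0.91, adjusted p = 0.278). Of the 48 variants off the consensus in CDR1 and CDR2, 29 had a fitted difference above 0, and the smallest limma adjusted p was that of T58M. The most frequent substitutions in CDR1 were S36N (11.9% ± 6.90 in the DNP and 7.91% ± 2.78 in the HuD animals), Y37N (8.84% ± 17.8 and 0.553% ± 0.831), T35I (8.51% ± 10.4 and 2.65% ± 1.97) and Y38F (2.11% ± 1.55 and 12.8% ± 12.6). Phenylalanine at position 38 was most frequent in HuD1, with 33.5% of its reads. At the other CDR1 positions they were G27D, Y28N, T29S and F30L, at DNP means of 1.94% to 4.83% and HuD means of 0.261% to 3.41%.

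The remaining CDR2 positions varied in both groups. The most frequent substitution was G64D at position 64 (16.0% ± 25.0 in the DNP and 1.74% ± 1.39 in the HuD animals), N57H at position 57 (13.8% ± 15.3 and 2.32% ± 1.82), I56V (6.53% ± 10.7 and 3.67% ± 5.10), T65S (6.52% ± 6.90 and 7.005% ± 5.82) and S62G (4.26% ± 3.59 and 0.957% ± 1.29). G59R and G63R stood at DNP means of 2.49% and 1.52% and HuD means of 1.11% and 2.46%. None of these passed in limma (adjusted p of 0.327 or more). As whole segments, the consensus CDR2 INTGSGGT was read in 8.27% to 41.9% of the reads of the DNP animals and 23.5% to 71.2% of the HuD animals, and INMGSGGT in 0.168% to 19.8% of the DNP and 0% to 0.541% of the HuD animals.

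The CDR1 peptide of the DNP antibodies is the glycine form printed above, preceded by the last 2 residues of FR1. It was read in 8.16%, 8.07%, 15.3%, 15.2% and 48.6% of the IGHV1-43 reads of DNP1 to DNP5, from 39 reads in DNP2 to 2363 in DNP4. HuD1 to HuD5 had 0, 11, 0, 1 and 5 such reads, which is 1.71% in HuD2, 0.128% in HuD4 and 0.184% in HuD5. A count of 0 of 370 reads in HuD1 allows a share of up to 0.811%, and 0 of 613 in HuD3 up to 0.489%, for counting error only. The peptide was chosen for its link to DNP, so this difference is a description. It came from 125, 12, 59, 326 and 60 clones in DNP1 to DNP5 and from 6, 1 and 4 clones in HuD2, HuD4 and HuD5. In DNP5 a single clone gave 87.4% of these reads, and in DNP1, DNP2, DNP3 and DNP4 the leading clone gave 16.3% to 51.3%.

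Serine in place of glycine gave the consensus form, which was the more frequent in the HuD animals. Positions 27 to 43 read as the consensus form in 7.28%, 40.99%, 8.50%, 12.8% and 13.9% of the reads of DNP1 to DNP5, against 21.4%, 49.9%, 44.9%, 55.95% and 43.8% in HuD1 to HuD5. DNP2 was the DNP animal within the HuD range. Other forms with the glycine and 1 other residue in CDR1 are printed below.
Threonine at position 36: GYTFTTYYIGWIK
Asparagine at position 36: GYTFTNYYIGWIK
Asparagine at position 37: GYTFTSNYIGWIK
The threonine form held 16.6% of the reads of DNP4 and at most 0.897% in any other animal. The form with asparagine at position 36 held 12.2% of DNP3, 0.670% to 2.63% of the other DNP animals and at most 0.0736% of a HuD animal, and that with asparagine at position 37 held 8.46% of DNP1 and at most 0.675% elsewhere. These 3 forms were thus each most frequent in a different DNP animal, and in DNP2 and DNP5 each held at most 1.86% of the reads.

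The FR3 peptide of the DNP antibodies ends with PDDSAVYYCAR, which reaches the start of CDR3. As a share of IGHV1-43 reads it did not set the antigens apart, with 58.6%, 30.6%, 48.6%, 56.2% and 17.3% in DNP1 to DNP5 against 32.2%, 64.7%, 49.1%, 58.5% and 23.1% in HuD1 to HuD5. The ranges overlapped almost fully. Both peptides stood in the same read in 1.28% to 10.2% of the IGHV1-43 reads of the DNP animals and in at most 0.933% of a HuD animal.

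On average, CDR3 sequences were shared more between animals of the same antigen than across antigens, less clearly so for the DNP pairs. Of 3653 distinct CDR3s of IGHV1-43 reads, 76 occurred in at least 2 animals, of which 48 in DNP animals only, 14 in HuD animals only and 14 in both. The overlap of a pair, the geometric mean of the shares of IGHV1-43 reads that lie in common CDR3s, averaged 5.23% over the 10 pairs of DNP animals and 3.01% over the 10 pairs of HuD animals, against 0.473% over the 25 mixed pairs. Pairs of the same antigen exceeded mixed pairs by 3.64 points (one-sided exact permutation test over 126 splits, p = 0.00794, the smallest it can give). The DNP mean rested on 1 pair, as DNP3 and DNP4 overlapped by 40.97%, and the median of the DNP pairs was 0.406%, with 4 pairs that had nothing in common. The mixed pairs had a median of 0.213%, and 7 of the 25 had nothing in common. The HuD pairs were more even, with a median of 2.30% and a range of 0.926% to 6.76%.

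**Figure D5:**
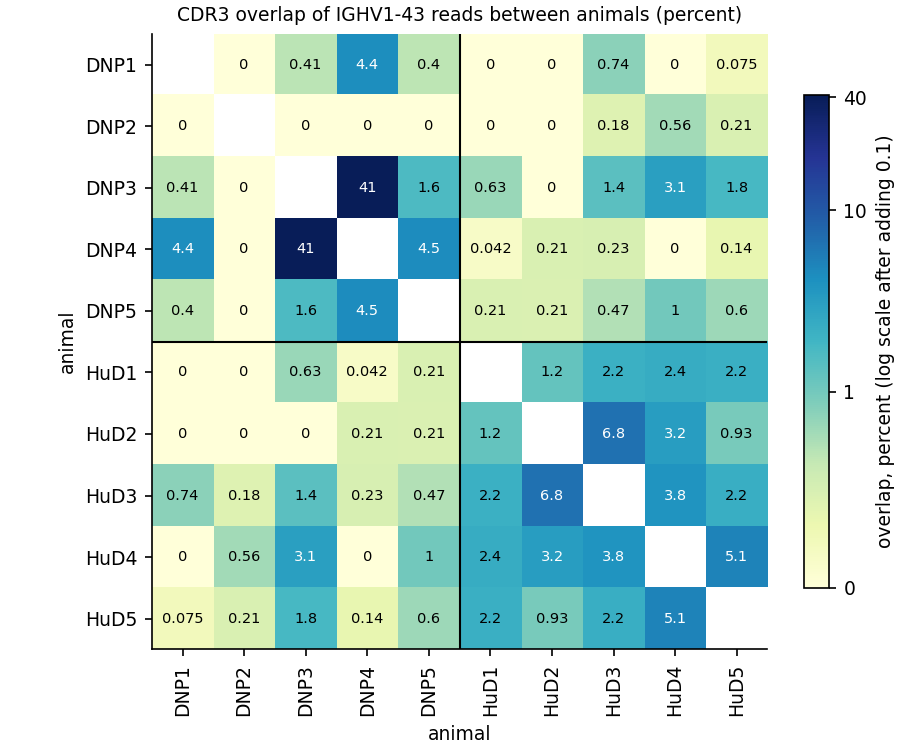
Overlap of the CDR3 sequences of IGHV1-43 reads for each pair of animals (percent, colour on a log scale after adding 0.1), with the DNP animals first on both axes and black lines between the antigens. DNP3 and DNP4 reached 40.97%, DNP2 shared nothing with the other DNP animals, and the HuD pairs lay between 0.926% and 6.76%.

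Much of the sharing between DNP3 and DNP4 rested on single reads. Of their 23 common CDR3s, 16 had 1 read in DNP3, and 11 of these had at least 10 reads in DNP4. For example ARGSDGVWFAY had 1 read in DNP3 and 837 in DNP4, and ARRRLPYWYFDF had 2 in DNP3 and 2263 in DNP4. In the other direction 2 CDR3s had 1 read in DNP4 and at least 10 in DNP3. A molecular tag with its CDR3 was found in more than 1 animal for 3 of 33438 such pairs, and all 3 were in DNP3 and DNP4, while a tag with its whole variable domain was found in more than 1 animal 0 times. Whether reads passed between these 2 libraries was not tested. With CDR3s of at least 2 reads only, DNP3 and DNP4 overlapped by 17.6%, and the difference of same-antigen and mixed pairs was 2.08 points. It was 2.21 points without DNP3, 1.47 without DNP4 and 2.06 without both, the last chosen after seeing the data, and each passed the one-sided exact permutation test (p = 0.00794, 0.00794, 0.00794 and 0.0179). Thinned to 370 reads per animal it was 1.22 points with an exact permutation p of 0.00794.

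The CDR3s in the most animals are printed to show what was shared. Their mean length was 10.7 residues over the 76 shared CDR3s, shorter than the 12.2 residues of the CDR3s of a single animal.
In 6 animals: ARDYSGGGFAY
In 4 HuD animals: AREGMDA
In 1 DNP and 3 HuD animals: AREGQLGFDY
In 4 DNP animals: ARSGYYAMDA
In 3 DNP animals: ARGSDGVWLAY
In 3 DNP animals: ARGGYGIWFAY
In 1 DNP and 2 HuD animals: ARDFGYNLYVMDA
In 3 DNP animals: ARDYSNYGFAY
In 3 DNP animals: ARGGYGVWFAY
In 1 DNP and 2 HuD animals: AREGTTRVMDA
ARDYSGGGFAY had 38 reads in DNP3 and 3 in DNP5, and 1, 8, 47 and 58 reads in HuD1, HuD3, HuD4 and HuD5, so it was common to both antigens. AREGMDA had 2, 3, 7 and 6 reads in HuD1, HuD2, HuD4 and HuD5. ARSGYYAMDA had 6, 1, 2 and 1 reads in DNP1, DNP3, DNP4 and DNP5, and ARGGYGVWFAY, of the largest family, had 7, 9 and 9 reads in DNP1, DNP4 and DNP5. The leading CDR3 of HuD2, ARDFGYNLYVMDA, had 46 reads there, 15 in HuD3 and 1 in DNP4. Of the 76 shared CDR3s, 46 had 1 read in at least 1 of their animals. Whole variable domains were rarely shared, with 17 in at least 2 animals, of which 10 in DNP3 and DNP4.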

How the data were processed

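Variable domains were amplified from spleen cell cDNA of 10 rats and sequenced on the MiSeq. The authors merged read pairs with PEAR, grouped them by molecular tag with MIGEC (a tag included 10 bases of CDR3, and 1 copy sufficed), and sent the result to High-VQuest for annotation. Their versions are not given in the sources used. The deposited files list collapsed sequences with the count of sequenced copies of each, and a collapsed sequence was used as 1 read. Of these, only productive reads with IGHV1-43 as first gene were described.

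Usage was compared with edgeR 4.0.16 in R 4.3.3 over genes with at least 100 reads, residue variants with limma 3.58.1 on log2(percent + 1) at mean shares of 1% to 99%, both with Benjamini-Hochberg adjustment, and single values by exact permutation over 252 sets of 5 animals (smallest p 0.00794) or 1024 sign flips (0.00195). DESeq2 1.42.0 and limma on log2(RPM + 10), where RPM scales reads by the total of the animal, were alternatives, as were other units, filters and animals left out. Tables and permutation tests were made in Python 3.11.15 with pandas 2.3.3 and numpy 2.4.6, and figures with matplotlib 3.10.9. On simulated counts of 81 genes, edgeR recovered 42.9% of genes changed by a fold of 8, and on 204 simulated residues limma recovered 70% of those changed by 2 on the log2 scale.

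Named were IGHV1-43, IGHV1 genes as counts, the 3 most similar genes by Spearman correlation, the 4 IGHJ genes, the leading clone of each animal, up to 10 CDR3s in the most animals, residue variants past the threshold without overlap, the most frequent substitution at each CDR1 and CDR2 position, and the tryptic peptides over CDR1 and from FR3 into CDR3. The members and lists were chosen with earlier results of these data known.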

Additional observations from a re-analysis of the deposited data

Results flagged for a closer look

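Of 24 sets of 5 animals looked at, 5 held an animal far from the other 4, where chance alone gives about 1 in 20 sets. DNP2 carried IGHJ4 in 38.5% of its IGHV1-43 reads, against 1.64% to 7.71% in the other DNP animals. HuD5 had an IGHV1-43 share of 1.31% of productive reads, against 0.237% to 0.424% in the other HuD animals, and 1.19 sequenced copies per IGHV1-43 read, against 1.008 to 1.019. DNP5 carried the CDR1 peptide in 48.6% of its IGHV1-43 reads, against 8.07% to 15.3% in the other DNP animals, and HuD2 in 1.71%, against 0% to 0.184% in the other HuD animals.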

How the results depend on the processing

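IGHV1-43 usage kept its direction under all alternatives. Its adjusted p dropped below 0.05 with genes of at least 1000 reads (log2 3.04, edgeR adjusted p = 0.0362), DESeq2 (2.84, 0.0065) and limma (2.59, 0.0221), with 3, 14 and 16 genes called in place of 2. With the animal number as a replicate block the values were 2.87 and 0.0376 with 13 genes called, and no residue variant was called (0, with S40G at 4.62 and a limma adjusted p of 0.248). The labels do not say that the numbers pair the animals. Deviations of same-numbered animals from their group means correlated between −0.144 and 0.294, which cannot settle whether the numbers pair them. The exact permutation test at each residue called 0 variants, and S40G, at 54.5 points, had an adjusted p of 0.324. Counting each distinct CDR3 once moved the CDR3 length difference to 0.625 and the IGHJ2 difference to −21.4, both past 0.05. The share of leading clones passed with the 50 most abundant clones (9.98 points), sequenced copies (23.4) or joined CDR3s (25.97). The distance from the consensus did not pass with copies (1.38) or without position 40 (1.31). Causes were not tested. With 1 animal left out, usage ranged from 2.70 to 3.56 with 0 genes called without HuD1, HuD4 or HuD5 and 30 without DNP2, CDR3 length from −0.0228 to 0.389 between the antigens and from −0.301 to −0.112 within animals, IGHJ2 from −30.0 to −21.1 between the antigens and from −27.1 to −21.8 within animals, leading clones from 13.0 to 20.9, residues off the consensus from 1.44 to 2.08, CDR3 overlap from 1.47 to 4.60, residue variants called from 0 to 3, and S40G from 4.41 to 5.02. For IGHJ1 within animals it ran from −1.38 to 1.44. Without both DNP3 and DNP4, S40G stood at 4.33 (limma adjusted p = 0.0465) and the residues off the consensus at 2.02. With 370 IGHV1-43 reads in HuD1, a count of 0 there allows a share of up to 0.811%, for counting error only.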
